A study of Mus musculus with 4 samples.

Results

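The clustered protocadherin genes were examined in the cerebral cortex of newborn mice. All genes of the deposited table whose name is Pcdha, Pcdhac, Pcdhb, Pcdhga, Pcdhgb or Pcdhgc followed by a number were taken, which gave 58 of 55414 genes. They comprised 14 genes of the alpha cluster, 22 of the beta cluster and 22 of the gamma cluster. The 4 libraries came from C57BL/6J mice on postnatal day 1. The 2 libraries named Control carried floxed Mkk7 on both alleles (Mkk7flox/flox). The 2 libraries named cKO carried the same alleles with Emx1-Cre, a Cre recombinase driven from the Emx1 locus of dorsal forebrain progenitors. The tissue therefore also held cells that the Cre line does not reach, such as vessels and neurons born outside the dorsal forebrain. In each group the libraries bear the replicate numbers 2 and 3, and the labels do not say whether they are separate animals. The p-values thus measure only the spread between these libraries.

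Protocadherins are cell adhesion proteins of the cadherin superfamily. In the alpha and gamma clusters each gene has its own large first exon, with its own promoter, which encodes the extracellular, transmembrane and nearby cytoplasmic parts. It is spliced to short constant exons shared by the whole cluster. Beta genes have no constant exons. A neuron is known to use only some of the promoters, picked largely at random, whereas the C-type genes at the end of the alpha and gamma clusters are used more evenly. The proteins bind their own kind on other cells, and the combination on a neuron lets its branches tell self from non-self. MKK7, encoded by Map2k7, activates the JNK kinases.

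Library totals lay between 19421491 and 22511247 estimated counts. Cortical identity was supported by the markers of excitatory cortical neurons, all 9 of which had counts. Their summed level was 1495 and 1717 CPM (counts relative to the scaled library total) in Control against 1969 and 1937 CPM in cKO. Of these markers, 8 had a positive log2 fold change and 1, Bcl11b, a negative one. Bcl11b stood at 268 and 247 CPM in Control and at 201 and 212 CPM in cKO. Map2k7 stood at 38.4 and 30.4 CPM in Control against 47.9 and 48.2 CPM in cKO, so the labels could not be checked from this gene. The deposited values cover the whole gene, and the labels do not name the deleted part. Summed markers of other cell types also differed between the groups or the libraries. The 8 striatal markers summed to 384 and 283 CPM in Control and to 124 and 105 CPM in cKO. Those of cortical interneurons gave 942 and 883 CPM against 792 and 668 CPM, and those of astrocytes 1204 and 1316 CPM against 961 and 1002 CPM, both lower in cKO. Of the 6 astrocyte markers, 5 had a negative log2 fold change and 1, Gja1, a positive one. Apoe alone gave 664 and 738 CPM against 490 and 479 CPM. The summed markers of meninges and fibroblasts gave 224 and 268 CPM against 353 and 326 CPM, higher in cKO. The 5 choroid plexus markers summed to 795, 9.95, 350 and 5.87 CPM in Control 2, Control 3, cKO 2 and cKO 3, far more in the libraries numbered 2. Ttr alone gave 763, 7.31, 335 and 4.99 CPM of these sums. Kl was higher in Control 3 (1.37 CPM) than in Control 2 (0.204 CPM). The library cKO 3 came from a male, with 985 counts of Y-linked Ddx3y and 0 of Xist, and the other libraries had 0 counts of Ddx3y. The part of these differences in the results below was not tested. In tissue libraries, fewer cells of a type and less RNA per cell cannot be told apart.

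The members lie side by side on the plus strand of chromosome 18 (GRCm39, coordinates of the deposited table). The alpha cluster runs from 37063237 to 37320714, the beta cluster from 37397991 to 37657532, and the gamma cluster from 37794846 to 37974926. In the GENCODE M21 gene models, used here for lengths only, the 3 constant exons held 2860 bases in the alpha cluster and 2119 bases in the gamma cluster. They made up a median of 53.5% of the longest coding transcript of an alpha gene and 44.8% of that of a gamma gene. Of all windows of 75 bases in that transcript, those found in no other member were a median of 42.6% in the alpha, 98.8% in the beta and 55.6% in the gamma cluster. Reads from the constant exons cannot be tied to a member by their sequence. In the deposited counts, none of the 14 alpha genes and none of the 22 gamma genes had whole numbers in all libraries, against 13 of the 21 beta genes with counts. Values of single alpha and gamma genes thus rest on how the authors' software split shared reads, whereas a sum over a cluster rests on it less.

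The newborn cortex expressed nearly the whole family at low levels, with the C-type genes Pcdhgc4 and Pcdhgc3 above the rest in each library. Levels between genes are compared here in TPM, the deposited transcript abundance corrected for length. All 14 alpha and all 22 gamma genes had counts in every library. In the beta cluster 21, 20, 21 and 19 of 22 genes had counts in Control 2, Control 3, cKO 2 and cKO 3. The median member had a mean of 4.69 TPM in the alpha, 1.39 TPM in the beta and 4.73 TPM in the gamma cluster. Together the 58 genes took 0.105%, 0.105%, 0.0954% and 0.109% of all counts in the same order of libraries.

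**Figure D1:**
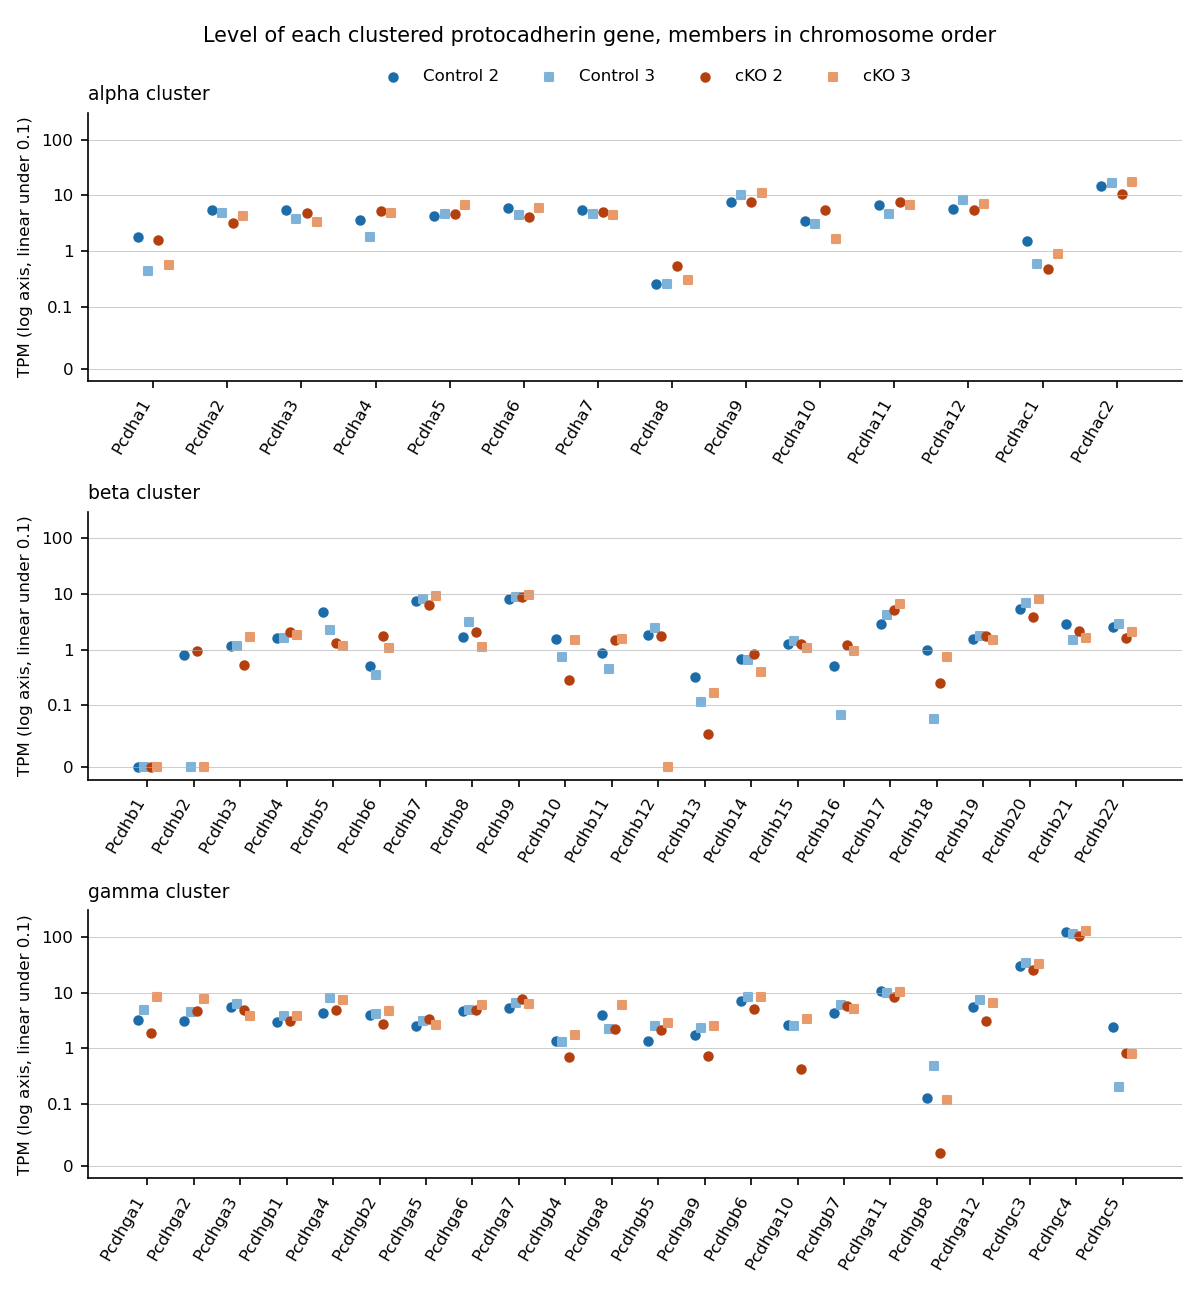
TPM of each of the 58 genes in the 4 libraries, in chromosome order within the alpha, beta and gamma clusters; 1 point is 1 library, and the axis is logarithmic above 0.1 and linear below it. Pcdhgc4 and Pcdhgc3 stand above all other genes in each library, and Pcdhb2 and Pcdhb12 are at 0 in some libraries only.

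Among the C-type genes, Pcdhgc4 had the highest level of the family. Pcdhgc4 (ENSMUSG00000023036.15; 37948132 to 37974926) encodes an isoform known to be needed for the survival of cortical interneurons. It stood at 122 and 113 TPM in Control 2 and Control 3, and at 104 and 128 TPM in cKO 2 and cKO 3, so the groups overlapped. Pcdhgc3, a widely expressed C-type gene, followed with 29.99 and 33.5 TPM in Control and 25.7 and 32.1 TPM in cKO. Pcdhac2 (ENSMUSG00000102697.2; 37276556 to 37320710), known for its role in spacing serotonergic axons, led the alpha cluster with 15.0 and 16.9 TPM in Control and 10.8 and 17.5 TPM in cKO. The remaining pair of C-type genes was low. Pcdhac1 stood at 1.50 and 0.587 TPM in Control and 0.473 and 0.895 TPM in cKO. Pcdhgc5, a gene known to come on later in postnatal life, stood at 2.43 and 0.202 TPM in Control and 0.836 and 0.792 TPM in cKO. C-type genes took between 50.4% and 57.9% of the gamma counts of a library, and between 18.8% and 28.3% of the alpha counts.

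The level of Pcdhgc4 in TPM needs its count beside it. Its estimated counts were 5047, 4416, 3965 and 5339 in Control 2, Control 3, cKO 2 and cKO 3, against 2108, 2336, 1739 and 2337 for Pcdhgc3. Per kilobase of deposited gene length, 1 TPM stood for 7.62 to 8.29 counts in Pcdhgc4 and for 14.4 to 15.5 counts in Pcdhgc3. The median gamma gene had 15.1, 15.5, 15.8 and 16.5 such counts in the 4 libraries. Fewer counts per TPM at a given gene length correspond to a shorter effective length behind the TPM. GENCODE M21 lists a short coding model of Pcdhgc4 of 2272 bases, of which 2119 bases (93.3%) lie in the constant exons. The deposited gene totals do not separate the models. How much of the TPM or of the estimated counts of Pcdhgc4 belongs to its own first exon was thus not tested. The share of the gamma counts taken by C-type genes has the same limit.

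**Figure D2:**
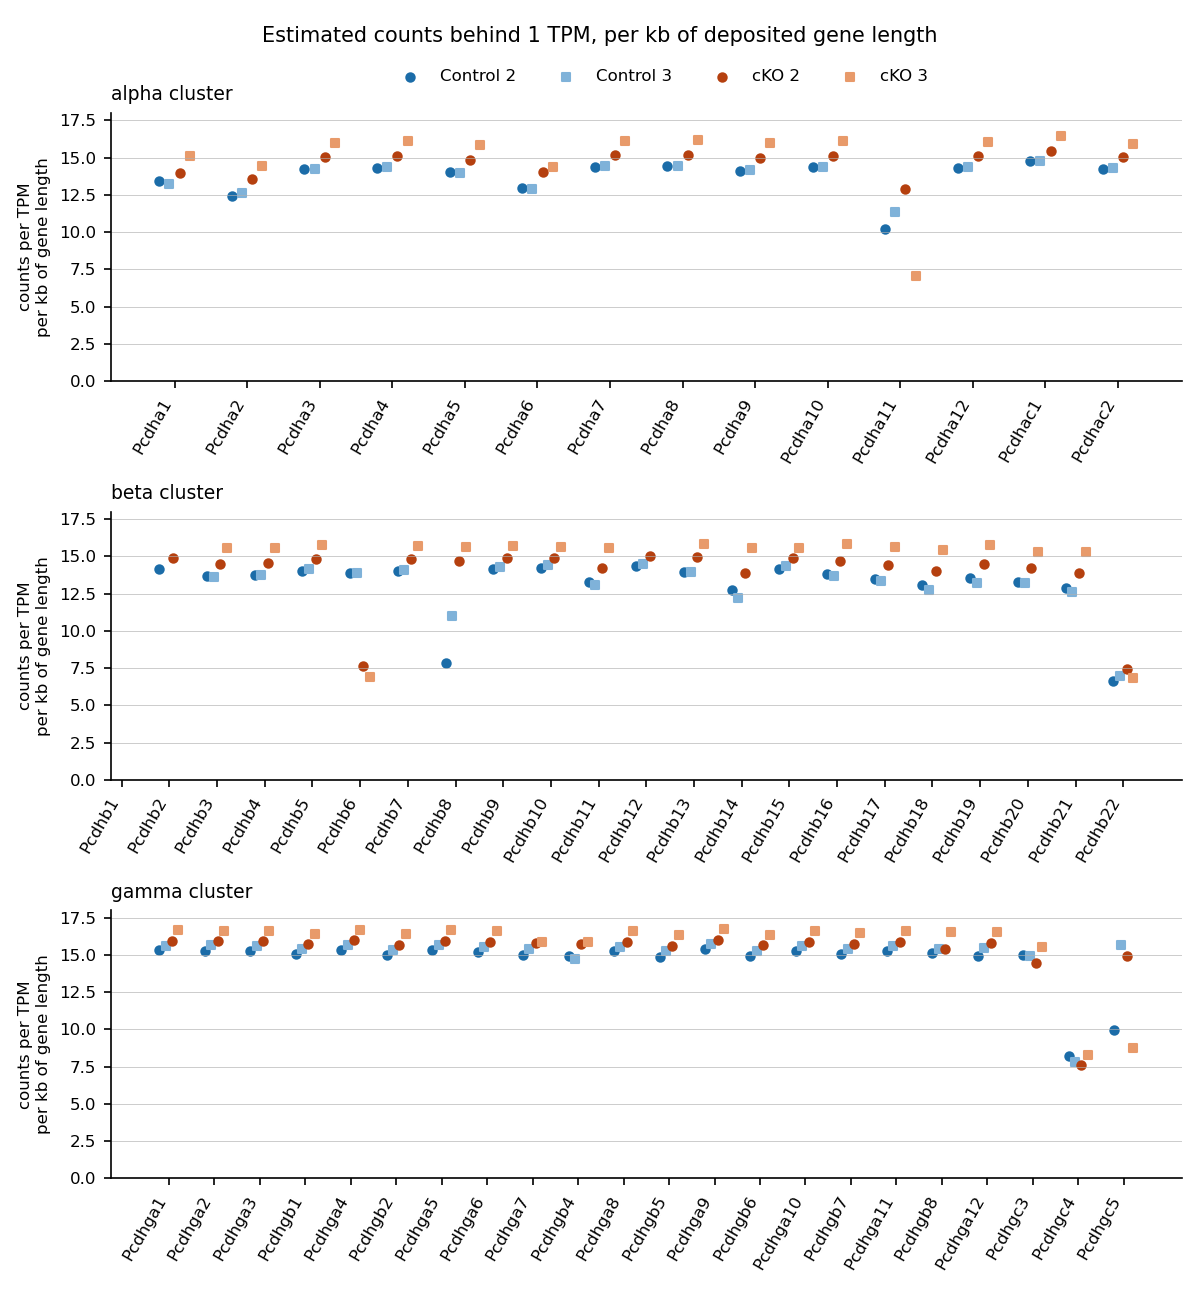
Estimated counts per TPM and per kilobase of deposited gene length, for each gene with counts, by cluster; 1 point is 1 library. Most genes lie between 12 and 17, while Pcdhgc4 and Pcdhb22 lie between 6.60 and 8.29 in all 4 libraries and Pcdha11, Pcdhb6, Pcdhb8 and Pcdhgc5 drop in some libraries only.

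Some beta genes showed the same mismatch in part of the libraries, and it moved their TPM. Pcdhb6 had 27, 18, 51 and 27.2 counts in Control 2, Control 3, cKO 2 and cKO 3. Its levels were 0.521 and 0.348 TPM in Control and 1.79 and 1.06 TPM in cKO. The log2 ratio of cKO to Control was thus 1.71 in TPM and 0.76 in CPM. Pcdhb8 went the other way, with a log2 ratio of -0.60 in TPM and -0.04 in CPM. For both genes GENCODE M21 holds a long model and a short one of under 1 kilobase. Fold changes below are therefore taken from counts. Pcdhb6 and Pcdhb8 are named because of these values.

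Outside the C-types, levels varied from gene to gene along each array. In the alpha cluster Pcdha9 had a mean of 9.12 TPM, Pcdha12 6.59 TPM and Pcdha11 6.41 TPM, and the lowest was Pcdha8 at 0.342 TPM. In the beta cluster Pcdhb9, Pcdhb7, Pcdhb20 and Pcdhb17 led with 8.91, 7.81, 6.07 and 4.68 TPM. Pcdhb1, the first gene of the beta array, had 0 counts in all 4 libraries, where a count of 0 allows up to 0.131 to 0.158 CPM per library. In the gamma cluster Pcdhga11 and Pcdhgb6 came next after Pcdhgc4 and Pcdhgc3, with 9.75 and 7.13 TPM. The lowest was Pcdhgb8, which the table lists as a polymorphic pseudogene, at 0.188 TPM. Spearman's rank correlation of TPM between libraries lay between 0.64 and 0.88 over the 14 alpha genes, 0.72 and 0.92 over the 22 beta genes, and 0.77 and 0.93 over the 22 gamma genes. These describe genes that share libraries and, in the alpha and gamma clusters, reads. The rank correlation of level with place along the array was 0.35, 0.24 and 0.10 in the alpha, beta and gamma clusters.

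The comparison of cKO with Control asks whether loss of MKK7 from the dorsal forebrain lineage goes with another protocadherin output. No clustered protocadherin gene passed the test. Of the 58 genes, 55 had enough counts to be tested: all 14 alpha, 20 beta and 21 gamma genes. None rose or fell (edgeR quasi-likelihood test, adjusted p from 0.377 to 0.998, adjusted over 17017 genes), against 0.047% called over all genes tested (0.00588% higher and 0.0411% lower). At an unadjusted p below 0.05 there were 6 members, 5 higher and 1 lower, which is 10.9% of those tested and equals the 10.9% over all genes (5.28% higher and 5.66% lower). DESeq2 called 0 members as well, with 5 at an unadjusted p below 0.05, against 1.09% called and 9.83% at an unadjusted p over all genes. The libraries of both groups did not overlap for 16 of 55 members (29.1%), 10 higher and 6 lower, against 44.1% of all genes tested (22% higher and 22.2% lower). The absence of calls does not show that the groups are alike, since the standard error of a member's log2 fold change had a median of 0.29 in the alpha, 0.51 in the beta and 0.29 in the gamma cluster.

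By cluster, 8 alpha genes had a positive and 6 a negative log2 fold change, with a median of 0.01. In the beta cluster 10 were positive and 10 negative, with a median of 0.01. In the gamma cluster 9 were positive and 12 negative, with a median of -0.12. The median over all genes tested was -0.00206. Among the gamma subfamilies the median was 0.05 for the 12 A-type genes, -0.07 for the 6 tested B-type genes and -0.22 for the 3 C-type genes. The gamma median ranged from -0.23 to 0.05 when each library was left out in turn, so its sign rested on single libraries (0.05 without cKO 2).

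**Figure D3:**
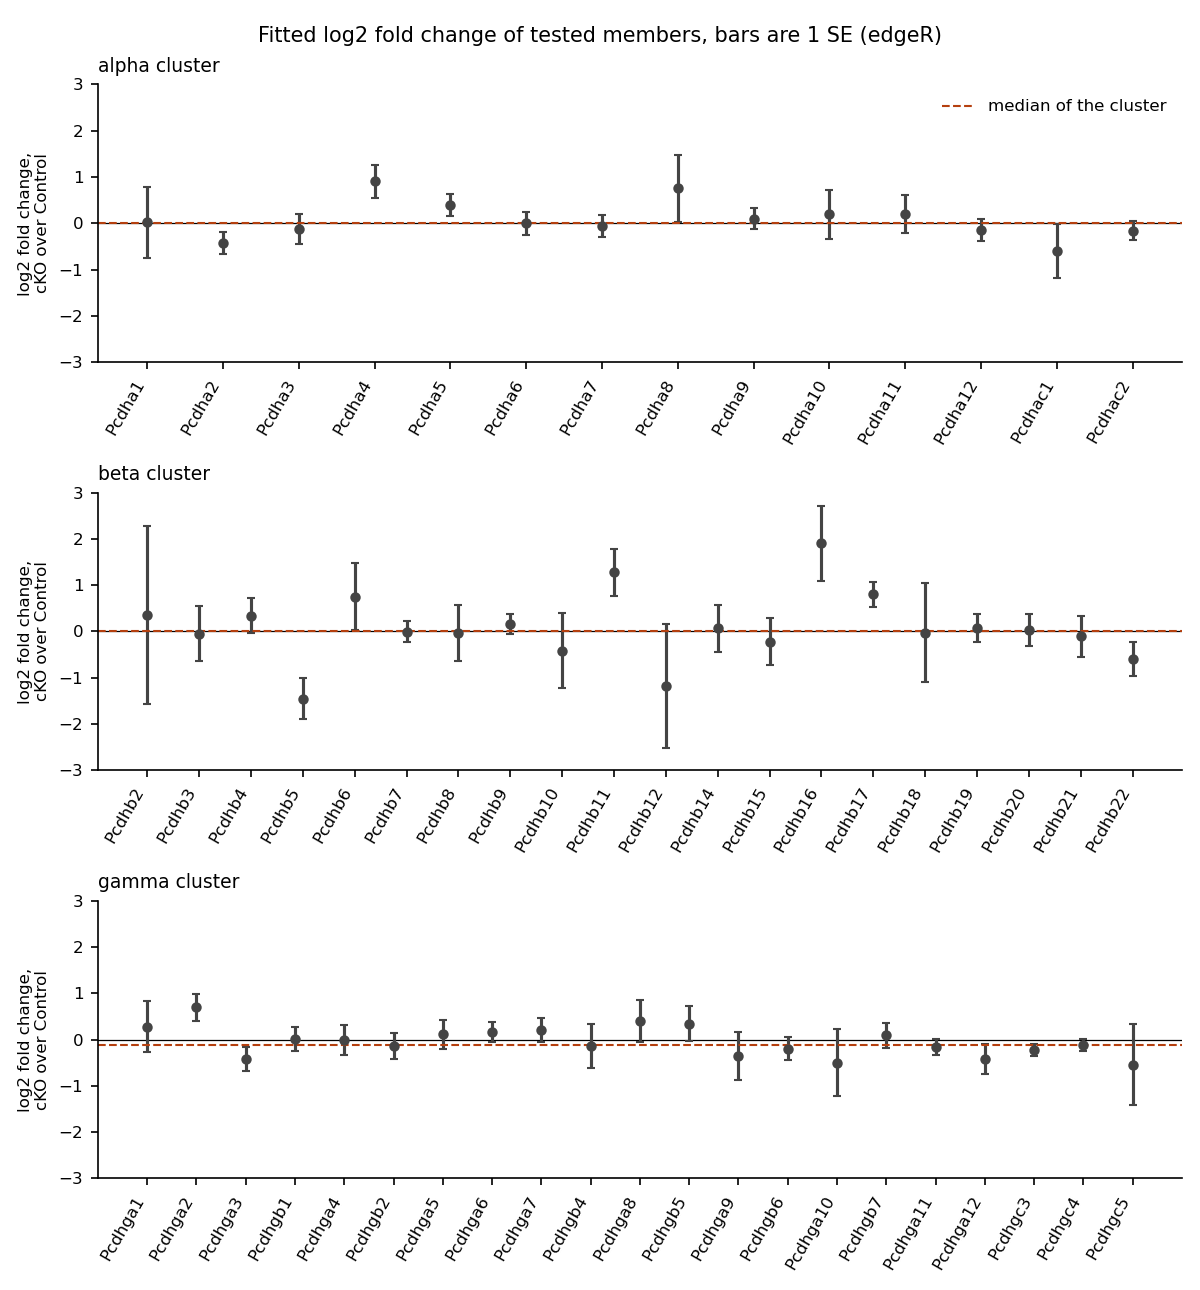
Log2 fold change of cKO over Control for the 55 tested genes, by cluster in chromosome order, with bars of 1 standard error from edgeR; the dashed line is the median of the cluster. The medians lie at 0.01, 0.01 and -0.12, and no gene passed the adjusted threshold of 0.05.

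In the beta cluster the smallest p-values belonged to Pcdhb5, Pcdhb17, Pcdhb11 and Pcdhb16. Pcdhb5 (ENSMUSG00000063687.4; 37453434 to 37456968) measured 11.8 CPM in Control 2, 5.79 CPM in Control 3, 3.63 CPM in cKO 2 and 2.80 CPM in cKO 3. Both cKO libraries were lower than both Control libraries, but the Control libraries differed from each other more than Control 3 differed from cKO 2. In edgeR the log2 fold change came to -1.45 with SE 0.45 and adjusted p = 0.377. Pcdhb17 (ENSMUSG00000046387.6; 37617848 to 37622507) stood at 9.27 and 13.0 CPM in Control and 18.01 and 21.1 CPM in cKO, higher in both cKO libraries (edgeR log2 fold change 0.81 with SE 0.27 and adjusted p = 0.399). Pcdhb11 stood at 2.65 and 1.32 CPM in Control and 4.84 and 4.77 CPM in cKO (log2 fold change 1.27, SE 0.51). Pcdhb16 stood at 1.88 and 0.305 CPM in Control and 4.90 and 3.37 CPM in cKO (log2 fold change 1.91, SE 0.81). The values of these genes thus lay on both sides of zero. The most abundant beta gene, Pcdhb9, stood at 18.2 and 19.3 CPM in Control and 21.5 and 20.4 CPM in cKO, slightly higher in both cKO libraries (log2 fold change 0.16, SE 0.21).

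In the alpha cluster Pcdha4 had the smallest p. It stood at 14.5 and 7.11 CPM in Control and at 22.3 and 18.2 CPM in cKO, without overlap (edgeR log2 fold change 0.91 with SE 0.36 and adjusted p = 0.433). Pcdha5 gave a log2 fold change of 0.39 (SE 0.23) and Pcdha2 one of -0.43 (SE 0.24). Pcdha8 had one of 0.76 (SE 0.72), at about 1.02 CPM in both Control libraries and 2.32 and 1.14 CPM in cKO. In the C-type and the most abundant alpha genes the groups overlapped. Pcdhac2 gave a log2 fold change of -0.15 (SE 0.20), Pcdha9 one of 0.10 (SE 0.23), Pcdha12 one of -0.15 (SE 0.24), Pcdha11 one of 0.21 (SE 0.41) and Pcdhac1 one of -0.59 (SE 0.58). All these alpha values share constant exons, so they are not independent of each other.

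In the gamma cluster Pcdhga2 had the smallest p. It stood at 11.3 and 16.4 CPM in Control and at 18.6 and 26.1 CPM in cKO (edgeR log2 fold change 0.70 with SE 0.29 and adjusted p = 0.449). Pcdhgc3 stood at 107 and 119 CPM in Control and at 91.6 and 102 CPM in cKO, where both cKO libraries were lower (edgeR log2 fold change -0.22 with SE 0.13 and adjusted p = 0.587). The lncRNA BC037039 (37938771 to 37940975, minus strand) overlaps the start of Pcdhgc3 (37939417), and the kit does not mark strand, so reads of this overlap cannot be told apart. BC037039 stood at 9.17 and 17.8 CPM in Control and 6.11 and 4.12 CPM in cKO (edgeR log2 fold change -1.40 with SE 0.41 and adjusted p = 0.355). Pcdhgc4, with the most counts and the smallest standard error of the family, gave a log2 fold change of -0.12 (SE 0.13). The interneuron markers, lower in cKO with 792 and 668 CPM against 942 and 883 CPM, were not tested for a part in this value. Pcdhga3 had one of -0.41 (SE 0.26), Pcdhga12 one of -0.43 (SE 0.33), Pcdhgb6 one of -0.20 (SE 0.25), Pcdhga11 one of -0.16 (SE 0.18) and Pcdhgc5 one of -0.54 (SE 0.88).

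The summed output of the alpha and beta clusters differed little between the 4 libraries in CPM. Over all alpha genes the sum was 274, 264, 277 and 270 CPM in Control 2, Control 3, cKO 2 and cKO 3, a range of 1.05-fold. The log2 ratio of cKO to Control was 0.02. Over all beta genes the sum was 128, 124, 133 and 134 CPM, a range of 1.08-fold. Both cKO libraries lay above both Control libraries, with a log2 ratio of 0.08, but in TPM the ratio was -0.01 and the groups overlapped. Over all gamma genes the sum was 641, 672, 566 and 670 CPM, a range of 1.19-fold with cKO 2 as the low library. Its log2 ratio was -0.09, and it was 0.03 without cKO 2. In TPM the sums were 72.4, 68.4, 66.2 and 75.2 for the alpha, 49.7, 48.6, 45.7 and 52.1 for the beta, and 228, 234, 196 and 258 for the gamma cluster. These ranged by 1.14-fold, 1.14-fold and 1.31-fold, wider than in CPM.

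**Figure D4:**
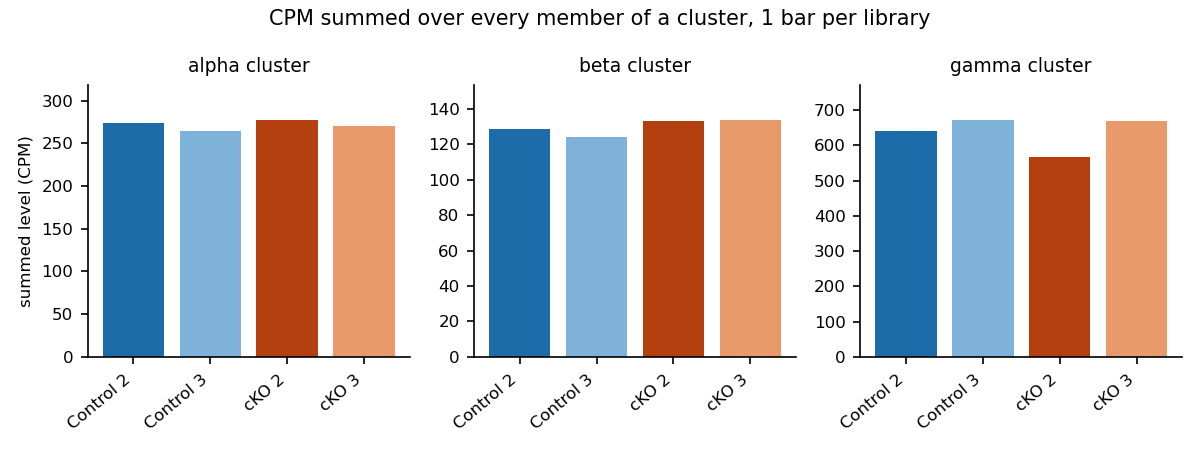
CPM summed over all members of the alpha, beta and gamma clusters, with 1 bar per library and axes that start at 0. The alpha bars differ by 1.05-fold and the beta bars by 1.08-fold from lowest to highest, and in the gamma cluster cKO 2 is lowest at 566 CPM.

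Most single members varied more between libraries of the same group than the typical gene. The spread is given as a coefficient of variation (CV), the SD within groups divided by the mean. The median member had a CV of 23.6% in the alpha, 38.98% in the beta and 23.8% in the gamma cluster. Over all genes tested the median was 16.5%. On the estimated counts, counting error alone gives a median CV of 5.34%, 11.4% and 5.18% in the clusters and 5.32% over all genes. In alpha and gamma genes these counts include split reads, and the error of the split is not in these values. For the sums, which average over many genes, the CV was 2.27%, 1.61% and 8.54% in CPM and 6.97%, 6.63% and 13.5% in TPM. The gamma genes Pcdhga6, Pcdhga11 and Pcdhgc3 had a lower CV than the gamma sum in CPM. Of the 55 tested members, 32 (58.2%) had a dispersion above the trend that edgeR fits to genes of the same level, against 32.0% of all genes tested. These values describe 2 libraries per group, and the difference was not tested.

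**Figure D5:**
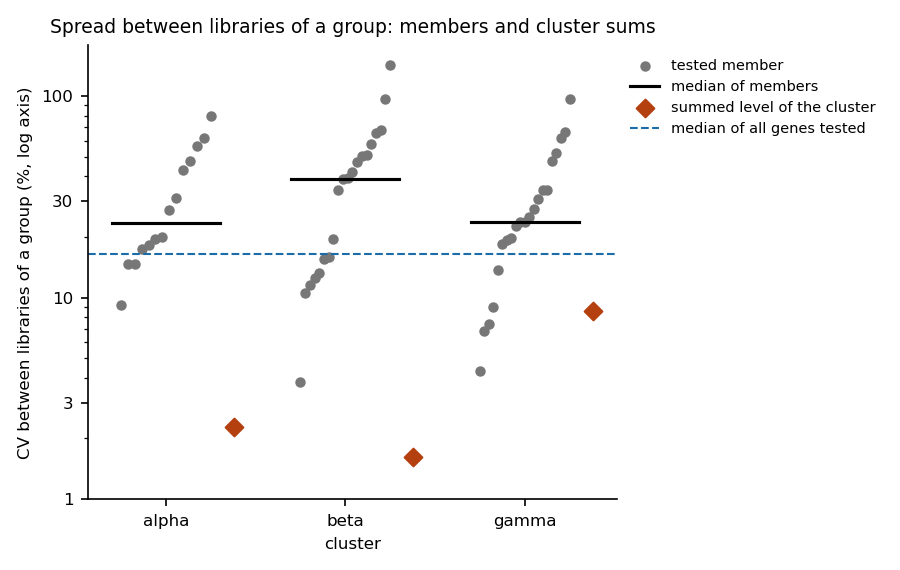
Coefficient of variation between libraries of a group, on a logarithmic axis, for each tested member (grey points), the median of each cluster (black line) and the summed level of each cluster (diamond); the dashed line is the median over all genes tested, 16.5%. All values are in CPM. The alpha and beta sums lie at 2.27% and 1.61%, below every one of their tested members. In TPM these sums have a CV of 6.97% and 6.63%.

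The spread of each sum in CPM was set against that of its members. With members that vary independently, the variance of a sum equals the summed variances of its members. For the alpha cluster the SD of the sum within groups was 6.15 CPM, against 21.1 CPM from its members' summed variances. For the beta cluster these values were 2.09 and 8.83 CPM. For the gamma cluster they were 54.4 and 30.6 CPM, with the sum above its members, and this came from the cKO pair. In cKO the values were 73.9 and 31.4 CPM, whereas in Control they were 21.6 and 29.8 CPM, with the sum below its members as in the other clusters. The low library was cKO 2, in which 11 of 22 gamma genes had their lowest level. A difference between the clusters was not tested. The size of these gaps depends on the unit. In TPM the median member had a similar CV, 24.0% in the alpha and 37.1% in the beta cluster. The CV of the sums was higher in TPM, at 6.97% and 6.63%, against 2.27% and 1.61% in CPM. The gap between sum and members in these clusters was thus narrower in TPM. In the alpha cluster the lowest level fell on the libraries 3, 4, 3 and 4 times in the order Control 2, Control 3, cKO 2 and cKO 3. A shared read given to 1 gene is not given to another, so splitting alone can make alpha and gamma genes offset each other. Its part in these values was not tested. In the beta cluster a median of 98.8% of windows were found in no other member, counting exact matches only. Of the 21 beta genes with counts, 13 had whole numbers in all libraries. The part of read splitting in the beta values was not tested either.

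A few members were high in some libraries and absent or nearly absent in others of the same group. They are named here because of their values. Pcdhb2 had 32 and 0 counts in Control 2 and Control 3, and 40 and 0 counts in cKO 2 and cKO 3. It was at least 10.7-fold higher in Control 2 than in Control 3, and at least 16.03-fold higher in cKO 2 than in cKO 3, each against a floor of 3 counts in the library with 0. Pcdhb12 had 79.0, 109, 80.6 and 0 counts, so cKO 2 was at least 32.5-fold above cKO 3. Pcdhb18 had 64, 5, 18 and 57 counts. In these beta genes 95.9% to 99.9% of windows were found in no other member, counting exact matches only. Pcdhb2 and Pcdhb18 had whole counts in all libraries. Pcdhb12 did not, with estimated counts of 108.73 in Control 3 and 80.58 in cKO 2. The part of read splitting in its values was not tested. Pcdhga10 stood at 9.62, 9.29, 1.68 and 11.6 CPM, low in cKO 2 only. Pcdha10 stood at 13.3 and 12.2 CPM in Control and at 23.1 and 6.22 CPM in cKO. Pcdha1 stood at 6.47, 1.57, 6.21 and 1.97 CPM in the order Control 2, Control 3, cKO 2 and cKO 3. Pcdhgc5 stood at 7.13, 0.914, 3.79 and 1.75 CPM. Of the 55 tested members, 10 (18.2%) were higher in both libraries numbered 2 than in both numbered 3, against 13.2% of all genes tested. Pcdhb2, Pcdha1, Pcdha10 and Pcdhgc5 were among these members. In 14 members (25.5%), Pcdhac2, Pcdha9 and Pcdhgb6 among them, both libraries numbered 2 were lower, against 13.1% of all genes tested. Alpha and gamma members share reads and are not independent of each other. The summed choroid plexus markers were also higher in the libraries numbered 2 (795 and 350 CPM, against 9.95 and 5.87 CPM). The part of that tissue in these values was not tested.

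None of the genes that regulate the clusters passed the test. The list held 25 genes, all tested: the insulator protein CTCF and the cohesin ring, which loop promoters to the enhancers, and enzymes of DNA and histone methylation that silence unused promoters. Their edgeR adjusted p ran from 0.461 to 0.996, and none had an unadjusted p below 0.05, against 10.9% of all genes tested. With 9 positive and 16 negative, the median log2 fold change was -0.03. Ctcf stood at 91.9 ± 7.74 CPM in Control and 91.7 ± 3.66 CPM in cKO (SD, n = 2). Smchd1, whose protein represses clustered protocadherin promoters, gave a log2 fold change of 0.11 (SE 0.26). The smallest p-values were those of Ehmt1, a histone H3 methyltransferase gene (-0.31, SE 0.13), Nipbl, the cohesin loader gene (0.42, SE 0.19), Setdb1, another H3 methyltransferase gene (-0.38, SE 0.19), and Rest, a repressor of neuronal genes (0.45, SE 0.28).

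Partners and effectors of the proteins gave no call either. This list of 25 tested genes held, among others, the kinases bound by the cytoplasmic tails and the WAVE actin complex. None passed (edgeR adjusted p from 0.339 to 0.988), and the median was 0.06, with 17 positive and 8 negative. In the list, 1 gene had an unadjusted p below 0.05. Marcks, which encodes an actin-linked substrate of protein kinase C that gamma protocadherins act through in dendrites, gave a log2 fold change of 0.21 (SE 0.10). Nlgn1, a synaptic adhesion gene whose protein gamma protocadherins bind, had one of 0.33 (SE 0.15), and the kinase gene Src one of -0.39 (SE 0.19).

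Genes around the clusters were read for comparison. Within 1 Mb of the outermost members, or between them, 93 other genes are listed and 45 were tested. None passed (edgeR adjusted p from 0.280 to 0.997), and the median was -0.08, with 15 positive and 30 negative. The lowest p was that of Apbb3, an adaptor gene of the amyloid precursor protein, with 44.5 and 36.5 CPM in Control and 17.7 and 22.9 CPM in cKO (edgeR log2 fold change -0.99 with SE 0.22 and adjusted p = 0.280; DESeq2 adjusted p = 0.0140). The histone deacetylase gene Hdac3 stood at 202 and 201 CPM in Control and 152 and 145 CPM in cKO (edgeR log2 fold change -0.44 with SE 0.11 and adjusted p = 0.309). Spry4, an inhibitor of growth factor signalling, gave a log2 fold change of 0.75 (SE 0.29). The 12 non-clustered protocadherins, which are separate genes with exons of their own, were all tested and gave no call (edgeR adjusted p from 0.317 to 0.995), with 9 positive, 3 negative and a median of 0.24. Of these, Pcdh1 and Pcdh12 lie among the neighbours.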

How the data were processed

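Per the submitters' processing notes, the authors used DRAGEN and the build GRCm39. Software version, annotation and settings were not given in the sources used here. Per the labels' protocols, DNase-treated total RNA was made into libraries with SMART-Seq version 4. The deposited table holds the authors' estimated counts and TPM of each gene, with 1 gene length that the authors deposited, used as a score in bases. Counts were rounded and filtered with edgeR's default (4.0.16, R 4.3.3), TMM-scaled, and tested with the quasi-likelihood test with genotype as the only term and Benjamini-Hochberg adjustment over 17017 genes. CPM are TMM-scaled. TPM were used for levels only, with no test or pseudocount. The test was checked on simulated counts. The alternatives tried were DESeq2 (1.42.0), limma-voom (limma 3.58.1), scaling by upper quartiles or by RLE, a floor of 1 on the mean CPM, testing without a filter, a replicate block, and leaving out each library. The members and lists were chosen with earlier results of these data known. Named genes are the C-types; per cluster the 4 highest in TPM, the lowest tested, and the 4 smallest p; the 4 smallest p of the regulators, partners and neighbours; Ctcf and Smchd1. Of these, 1 gene of the partners is not reported here. Other members are named after their values were seen. Sequences of these genes are not reported here.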

Additional observations from a re-analysis of the deposited data

How the results depend on the processing

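There were 2 libraries per group, and counting error alone gave the median beta gene a CV of 11.4%, against the 38.98% observed. No alternative called a member in either direction. Over all genes the test called 1 higher and 7 lower; without a filter these were 21 and 37, with DESeq2 80 and 105, with limma-voom 3 higher, and at a mean CPM of at least 1, 2 higher. Leaving out a library gave 0 higher and 0 to 2 lower. The summed-level log2 ratio with upper-quartile scaling was 0.0647 for the alpha and 0.12 for the beta cluster, and the beta ratio in deposited TPM was -0.00761. Without each library in turn it ranged from -0.00149 to 0.05 (alpha), 0.0558 to 0.103 (beta) and -0.215 to 0.0296 (gamma). Upper-quartile scaling moved the median of all genes to 0.04. Of 39 named genes, 27 kept their sign in all alternatives run and 8 changed it only when a library was left out. The log2 fold change of Pcdhb7 was 0.0366 with upper-quartile scaling and 0.00490 at a mean CPM of at least 1, that of Ctcf 0.0372, 0.00479 and, with limma-voom, 0.000714, that of Pcdhb20 -0.0106 with limma-voom, and that of Pcdhb2 -0.13 with limma-voom. The cause was not tested. Ranges without each library were -1.12 to 0.23 (Pcdhac1), -0.44 to 0.0842 (Pcdhac2), -1.37 to 1.59 (Pcdhgc5), -0.13 to 0.30 (Pcdha9), -0.39 to 0.13 (Pcdha12), -0.58 to 0.72 (Pcdha11), -0.17 to 0.15 (Pcdhb7), -0.54 to 0.43 (Pcdhb20), -7.09 to 7.43 (Pcdhb2), -0.49 to 0.0426 (Pcdhgb6), -0.0889 to 0.0824 (Ctcf) and -0.16 to 0.42 (Smchd1). With 1 library left in a group, it is assumed to vary like the other group. Apbb3 passed with DESeq2. The labels do not tie a replicate number to a litter or day; the deviations of the libraries numbered 2 and 3 correlated at 0.0136 over 17017 genes. The replicate block called 1 higher and 6 lower genes and 0 members, and put Pcdhb20 at -0.0387. In 24 of 55 members (43.6%) both libraries numbered 2 lay on 1 side of both numbered 3, against 26.3% of all genes tested.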
